A study of Mus musculus with 70 samples.

Results

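Heart muscle cells are not confined to the heart: in the mouse, sleeves of atrial-type heart muscle run along the pulmonary veins into the lung. The genes described here are 36 genes of that muscle, taken by symbol from the count table of whole lung tissue, which holds 24420 distinct rows, and all were found. They comprise 5 genes of the thick filament, 4 of the thin filament, 11 of the Z disc and its scaffold, 6 of calcium release and uptake, 8 of oxygen storage and energy supply, and 2 genes for an atrial hormone and a cardiac transcription factor.

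The 70 lungs came from male 129S-Slc26a4tm1Erg/AjgJ mice bred from heterozygotes and about 3 months old at exposure. They were homozygous wildtype (WT) or homozygous knockout (KO) for Slc26a4, which encodes the anion exchanger pendrin. In a whole-body inhalation chamber the mice breathed either air or crystalline silica (Min-U-Sil5, 15 mg/m3, for 6 hours on each of 4 days). Lungs were taken 1 day later, or 3 or 9 months later. Each of the 12 groups held 6 mice, except both WT groups at 9 months, which held 5. The mutation was carried by every tissue of the KO mice, not by the lung alone, and RNA came from a piece of each lung.

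Total counts ran from 802478 to 5596316 per library with a median of 2183480. Levels are counts per library total (CPM) scaled by the trimmed mean of M-values. Median Slc26a4 was 8.22, 11.5 and 16.8 CPM in WT air lungs at the successive times and 1.57, 2.16 and 3.33 CPM in KO air lungs. It was 50.4, 55.1 and 55.8 CPM in WT silica lungs and 13.9, 13.9 and 12.5 CPM in KO silica lungs. All replicate pairs differed by more than counting noise, with a lowest chi-square of 1.47 per degree of freedom. The libraries of 5 mice stood apart, with a chi-square of at least 5.64 per degree of freedom to the nearest mouse of their group, against at most 3.71 in the other 65: KO silica 1 day mouse 3, KO silica 3 months mouse 3, WT air 9 months mouse 5, and KO air 9 months mice 4 and 5. The library labelled KO air 9 months mouse 4 held 51.7 CPM of Slc26a4, which goes against its label. WT air 9 months mouse 5 held 74.2 CPM, above the WT silica median of 55.8 CPM at that time. KO silica 3 months mouse 3 held 3.38 CPM, beside its group median of 13.9 CPM. KO air 9 months mouse 5 held 16.8 CPM, beside its group median of 3.33 CPM, and KO silica 1 day mouse 3 held 13.5 CPM, near its group median. Counts of members called after silica are also given without these libraries.

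In the sarcomere, myosin of the thick filament pulls on actin of the thin filament, and troponin makes that pull depend on calcium. Calcium leaves the sarcoplasmic reticulum through the ryanodine receptor and is pumped back by a calcium ATPase that sarcolipin and phospholamban restrain. Atrial muscle is told from ventricular muscle by its myosin light chains, by sarcolipin and by the hormone that Nppa encodes.

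The promoters of Myh6, Myl7 and Actc1 are shown because these genes lead the list in level and vary together between mice. That of Adssl1 is shown because this gene, also a muscle gene, followed them weakly at most. RefSeq promoter windows of 300 bases on GRCm38.p6 (250 before the annotated start and 50 after it) were found for 31 of the 36 members. The windows are Myh6 (chr14:54966558-54966857, minus strand), Myl7 (chr11:5898733-5899032, minus strand), Actc1 (chr2:114052826-114053125, minus strand) and Adssl1 (chr12:112619797-112620096, plus strand). Capitals mark matches on either strand to any of the motifs searched. These were the CArG box that serum response factor binds, the MEF2 site, and the TATA box core TATAAA. Also searched were the core CATTCC, which the transcription factors of the TEAD family bind in heart and other muscle genes. The last was the core AGATAA, which factors of the GATA family bind.
Myh6: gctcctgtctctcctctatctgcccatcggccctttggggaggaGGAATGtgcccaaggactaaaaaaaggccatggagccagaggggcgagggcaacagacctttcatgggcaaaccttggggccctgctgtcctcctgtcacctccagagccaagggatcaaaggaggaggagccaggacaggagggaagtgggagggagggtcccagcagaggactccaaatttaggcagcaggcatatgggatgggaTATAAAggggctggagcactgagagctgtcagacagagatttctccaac
Myl7: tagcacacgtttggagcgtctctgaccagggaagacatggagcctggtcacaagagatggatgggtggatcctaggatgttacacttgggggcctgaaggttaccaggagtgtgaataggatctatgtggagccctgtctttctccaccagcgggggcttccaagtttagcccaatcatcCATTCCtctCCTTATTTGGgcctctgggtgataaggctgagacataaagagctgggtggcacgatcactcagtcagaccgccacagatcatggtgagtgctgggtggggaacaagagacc
Actc1: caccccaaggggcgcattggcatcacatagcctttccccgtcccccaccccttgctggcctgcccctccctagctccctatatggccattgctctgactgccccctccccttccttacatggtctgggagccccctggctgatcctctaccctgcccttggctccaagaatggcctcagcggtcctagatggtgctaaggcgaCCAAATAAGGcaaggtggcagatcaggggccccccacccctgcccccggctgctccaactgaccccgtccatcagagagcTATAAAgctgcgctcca
Adssl1: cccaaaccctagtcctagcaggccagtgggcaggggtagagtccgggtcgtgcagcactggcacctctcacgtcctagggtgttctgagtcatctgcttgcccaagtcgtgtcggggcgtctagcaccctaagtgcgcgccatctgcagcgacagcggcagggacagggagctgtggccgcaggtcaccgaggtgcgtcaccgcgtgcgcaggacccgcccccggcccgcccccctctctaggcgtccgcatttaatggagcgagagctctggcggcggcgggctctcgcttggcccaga
A CArG box was found in the windows of 4 members (Actc1, Ldb3, Myl7 and Nebl), in 12.8% of the 39 member windows and in 1.63% of all 32851 windows. A MEF2 site was found in 4 members (Casq2, Mybpc3, Myoz2 and Ttn), in 10.3% of member windows and in 3.19% of all. The TATA box core was in 12.8% of member windows and 13.6% of all, the TEAD core in 17.9% and 14.7%, and the GATA core in 17.9% and 11.2%. In Myl7 the TEAD core lies from 70 to 65 and the CArG box from 61 to 52 bases before the start. In Actc1 the CArG box lies from 47 to 38 bases before it. The TATA box core lies after the annotated start, counted as base 1, from base 2 to 7 in Myh6 and from base 34 to 39 in Actc1. The Adssl1 window holds no match to these motifs, which says only that the letters are not in this window. Some members have several windows, and those of Ldb3 overlap, so windows are not independent, and a match is a description.

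The members were read from the lung at very different levels. Per kilobase of exon, the highest was Myl7, the regulatory light chain of atrial myosin, with a mean of 78.4 CPM per kb. It was followed by Actc1, cardiac alpha-actin, at 41.8 CPM per kb, and by Myh6, the alpha heavy chain of cardiac myosin, at 41.2 CPM per kb. Des encodes the intermediate filament desmin and stood at 25.4 CPM per kb, ahead of Nebl, which encodes the Z disc protein nebulette, at 13.0 and Tnni3 (troponin I) at 11.1 CPM per kb. Ttn, which encodes the giant spring protein titin, had the highest CPM of all members (mean 742 ± 332, SD, n = 70) but only 6.35 CPM per kb over its 116825 bases of exon. At the other end stood Nkx2-5, a transcription factor of early heart muscle, with no count in 40 of 70 libraries, and Nppa, the precursor of atrial natriuretic peptide, with no count in 58 of 70 and never more than 3 counts.

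**Figure D1:**
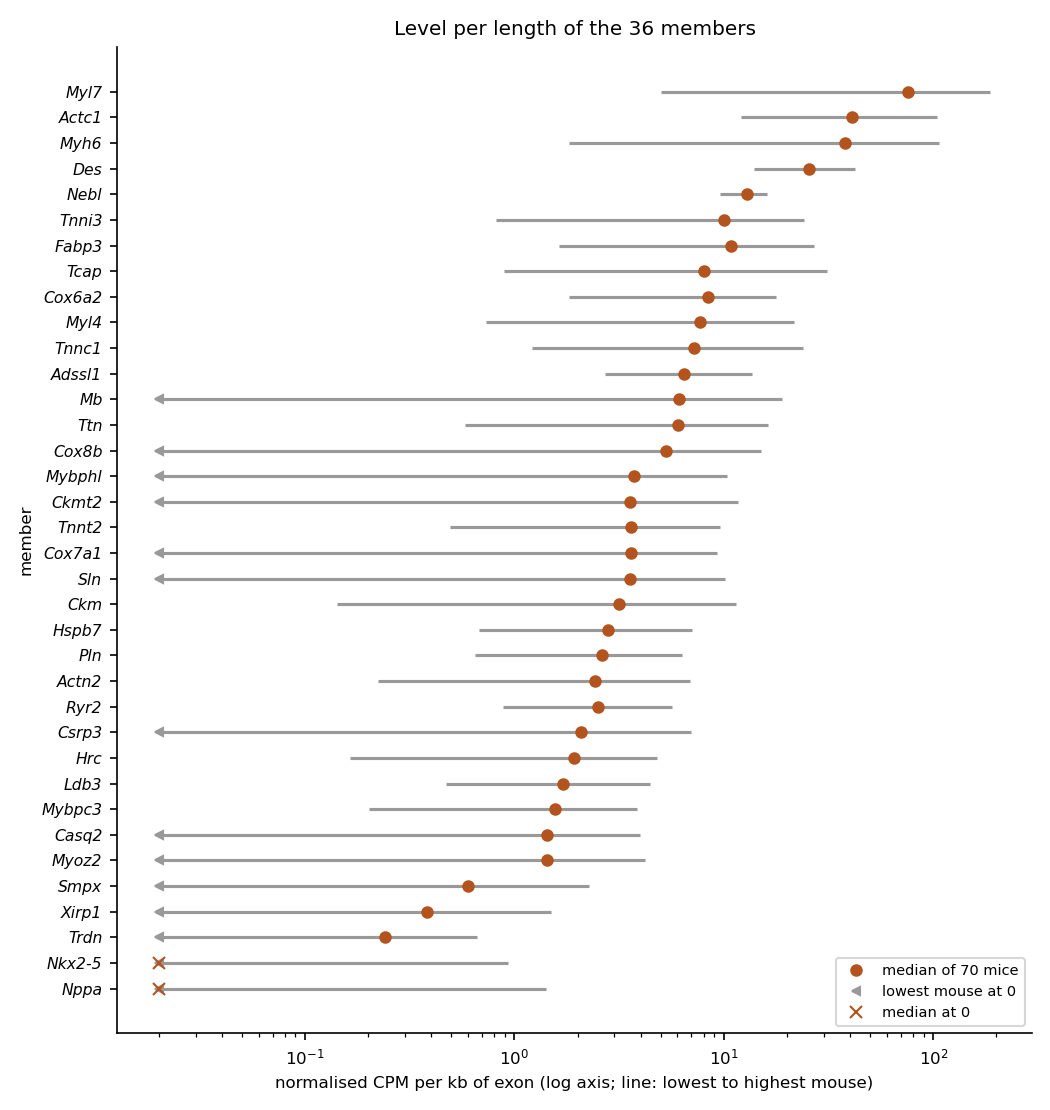
Level of each of the 36 members per kilobase of exon (normalised CPM per kb, log axis); points are medians over the 70 mice, lines run from the lowest to the highest mouse, and arrows mark members at 0 in at least 1 mouse. Myl7, Actc1 and Myh6 lead, Nebl and Des have short lines, and crosses mark the median of 0 of Nppa and Nkx2-5.

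The label was checked against markers of other muscle. The ventricular light chain Myl2 had no count in 44 of 70 libraries and a mean of 0.41 CPM, and its atrial counterpart Myl7 a mean of 46.3 CPM. The ventricular light chain Myl3 had no count in 12 of 70 libraries and a mean of 2.06 CPM, and the atrial light chain Myl4 a mean of 39.1 CPM. Other ventricular markers were Hey2, with a mean of 4.43 CPM, and Nppb and Irx4, with means of 0.075 and 0.00688 CPM. Sln, which encodes sarcolipin and is an atrial gene, had a mean of 4.76 ± 2.74 CPM (SD, n = 70). Myh7, the slow cardiac myosin heavy chain and a ventricular marker, was read at a mean of 93.7 CPM, with a lowest value of 30.4 CPM. It is a close relative of Myh6 and lies beside it, and how reads were divided between them was not tested. Of 15 skeletal muscle markers 11 had a mean under 1 CPM, among them Acta1 at 0.508 CPM and Myh4 at 0.117 CPM. The others were Neb, with a mean of 7.74 CPM, Tnnt3 at 2.07 CPM, Ryr1 at 1.54 CPM and Casq1 at 1.21 CPM. The atrial light chains thus stood well above the ventricular ones and Sln was read, while Nppa, the atrial hormone gene, was at or near 0. The ventricular markers Myl3, Hey2 and Myh7 were read as well, as was the skeletal muscle marker Neb.

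The spread between mice was wide for most members. Myh6 (gene 17888, chromosome 14 from 54941921 to 54968017) ran from 12.3 CPM in KO silica 3 months mouse 3 to 717 CPM in WT air 3 months mouse 4, a 58.6-fold range. Myl7 ran from 2.96 to 111 CPM, a 37.4-fold range, and Ttn from 67.6 to 1888 CPM. Single mice were extreme in many members at once: KO silica 3 months mouse 3 held the lowest or joint lowest value of 17 members, and WT air 3 months mouse 4 the highest value of 15. Nebl had only a 1.69-fold range, from 145 to 246 CPM, and Des a 3.05-fold range, from 52.2 to 159 CPM.

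Summed over the 36 members, reads came to between 506 and 3934 CPM per lung with a median of 1679 CPM. The lowest sums, 506, 541 and 698 CPM, were those of KO silica 3 months mouse 3, WT silica 9 months mouse 4 and the library labelled KO air 9 months mouse 4. In air and after silica, the median sums were 2242 and 1555 CPM in WT lungs at 1 day, 2252 and 1389 CPM at 3 months and 1617 and 1492 CPM at 9 months. In KO lungs they were 1939 and 1848 CPM at 1 day, 1873 and 1641 CPM at 3 months and 1317 and 1348 CPM at 9 months, so that in KO lungs at 9 months the silica median was the higher. The sums include Nebl and Des, which varied little between mice and had lowest values of 145 and 52.2 CPM. A part of each sum thus varied little between mice, while most other members varied widely. In whole lung tissue, fewer heart muscle cells in the piece taken and less RNA per heart muscle cell cannot be told apart.

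Within groups the members varied together. Each gene's log2(CPM + 0.5) was set relative to its group mean, and the 70 deviations were compared between genes. Over the 435 pairs of the 30 members that passed the filter on low counts in the model of all 12 groups, the median Pearson r was 0.61, and 284 pairs were above 0.5. These genes share libraries and depth, so the value is a description. Against the mean of the other members, r was 0.95 for Ttn, 0.93 for Myl7, 0.92 for Myh6, 0.92 for Myl4 (an atrial light chain), 0.91 for Tnnt2 (troponin T) and 0.91 for Mb (myoglobin, which stores oxygen), and it was above 0.7 for 23 members. It was 0.00 for Des, 0.04 for Adssl1, which makes adenylosuccinate in the purine nucleotide cycle of muscle, and 0.40 for Nebl. By ranks, Spearman rho was 0.06 for Des, 0.26 for Adssl1 and 0.32 for Nebl. In KO silica 3 months mouse 3 Myh6 deviated by -3.59 and Adssl1 by 0.99, and r of Adssl1 without this mouse is not given.

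Pairs of Myh6 with 10 other members were tested over the 70 deviations by permuting mice within their groups, with Benjamini-Hochberg adjustment over the 10 pairs. Myl7 followed Myh6 with r = 0.90 and rho = 0.83 (permutation p = 1e-05, the smallest that 100000 permutations give, adjusted p = 1.43e-05 for both). The same permutation p was reached for r and for rho by Tnnt2 (r = 0.92, rho = 0.89), Mb (0.89 and 0.84), the ryanodine receptor gene Ryr2 (0.86 and 0.85), Sln (0.78 and 0.71), muscle creatine kinase Ckm (0.78 and 0.73) and the Z disc gene Ldb3 (0.63 and 0.69). Cox8b, a muscle form of a cytochrome oxidase subunit, had r = 0.31 (permutation p = 0.0221, adjusted p = 0.0277) but rho = 0.17 (permutation p = 0.178, adjusted p = 0.222). Nppa (r = 0.10, rho = 0.07, adjusted permutation p = 0.608 and 0.628) and Des (r = -0.11, rho = 0.05, adjusted permutation p = 0.597 and 0.719) did not pass. Because Nppa had no count in 58 of 70 libraries, its test cannot show whether it follows Myh6. Cox8b, with a median of 4 counts, was limited by low counts too.

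The mice farthest from the median of Myh6 were KO silica 3 months mouse 3 and WT silica 9 months mouse 4. Without both, r with Myh6 was 0.86 for Myl7, 0.92 for Tnnt2, 0.82 for Mb, 0.85 for Ryr2, 0.72 for Sln, 0.73 for Ckm, 0.69 for Ldb3, 0.22 for Cox8b, 0.17 for Nppa and 0.13 for Des. Without the 5 libraries that stand apart, r was 0.88 for Myl7, 0.90 for Tnnt2, 0.87 for Mb, 0.85 for Ryr2, 0.77 for Sln, 0.82 for Ckm, 0.74 for Ldb3, 0.13 for Cox8b, 0.22 for Nppa and 0.14 for Des, and the median over the 435 pairs was 0.55. The relation of Cox8b to Myh6 thus rested on few mice.

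Within the mice of 1 day, 3 months and 9 months taken separately, r with Myh6 was 0.81, 0.95 and 0.88 for Myl7, 0.91, 0.93 and 0.94 for Tnnt2, 0.82, 0.97 and 0.87 for Mb and 0.88, 0.93 and 0.86 for Ryr2. It was 0.61, 0.79 and 0.89 for Sln, 0.55, 0.86 and 0.84 for Ckm and 0.64, 0.44 and 0.87 for Ldb3. For Cox8b it was -0.17, 0.55 and 0.30, for Nppa 0.16, 0.00 and 0.29 and for Des -0.26, -0.46 and 0.33, so Cox8b and Des did not keep 1 sign across times.

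**Figure D2:**
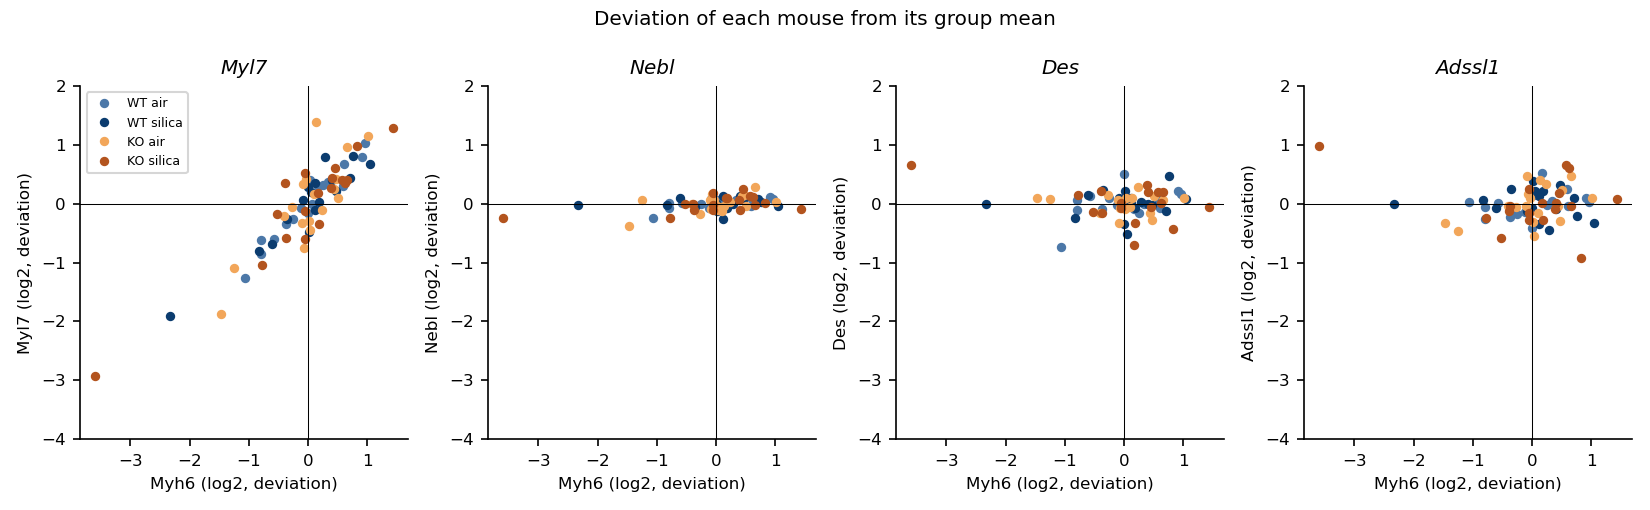
Deviation of each of the 70 mice from its group mean (log2 units) for Myh6 on the horizontal axes and for Myl7, Nebl, Des and Adssl1 on the vertical axes, coloured by genotype and exposure. Myl7 follows Myh6 (r = 0.90), while in the mouse lowest in Myh6 (-3.59) Nebl was at -0.25, Des at 0.65 and Adssl1 at 0.99.

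**Figure D3:**
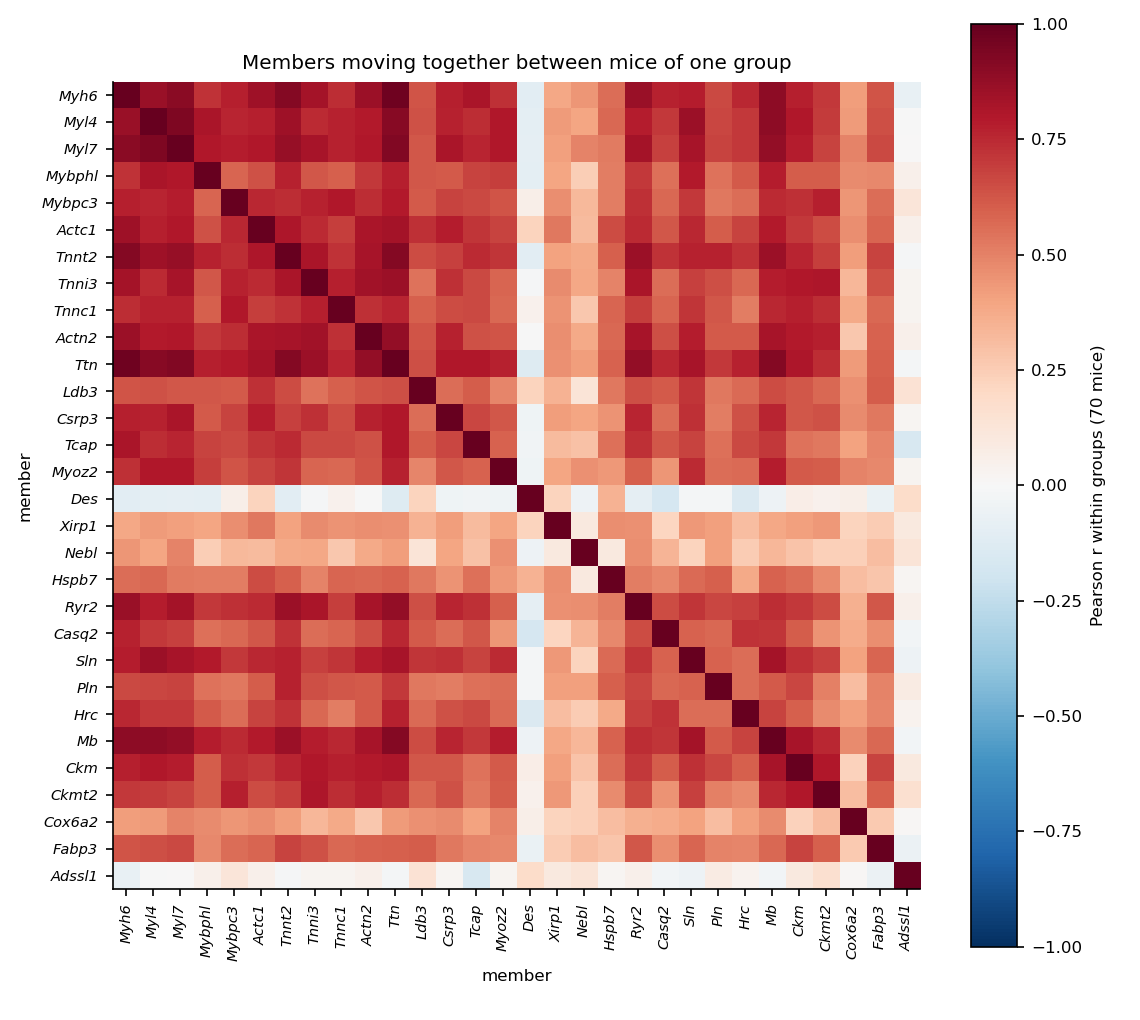
Pearson r between the within-group deviations of the 30 tested members over 70 mice, from blue (-1) to red (1), ordered by role. Most pairs are red, with a median of 0.61, and the rows of Des and Adssl1 are pale.

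Genes outside the members were ranked by r with the members' mean pattern, among 14401 genes with a mean of at least 1 CPM, whose median r was 0.00. Among the nearest 12 were Xirp2 (0.85), Myom2 (0.83), Eef1a2 (0.82), Cmya5 (0.81), Srl (0.79), Tbx20 (0.77), Kcnj3 (0.77), Nrap (0.76), Myom1 (0.74), Lmod2 (0.71) and Eno3 (0.71). Both Myom genes encode proteins of the sarcomere, Tbx20 is a transcription factor of the heart, and Kcnj3 encodes a potassium channel of atrial muscle. Of the 36 further heart muscle genes above 1 CPM, 17 had r above 0.5 and the median was 0.46. The share of the 14401 genes with r above 0.5 is not given here, so the 17 are a description. Among the ventricular markers above 1 CPM, r was 0.57 for Myl3, 0.42 for Myh7 and 0.13 for Hey2. The median r was 0.12 for 12 smooth muscle markers, 0.19 for 8 fat markers, 0.18 for 4 skeletal muscle markers, -0.18 for 6 mesothelium markers and 0.09 for 14 respiratory chain genes of all cells.

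At 1 day after exposure, 4 members were lower after silica than after air over both genotypes. All changes are given on the log2 scale. Adssl1 fell by 0.54 on the log2 scale (SE 0.10, edgeR adjusted p = 0.000702), Ckm by 0.77 (SE 0.21, adjusted p = 0.0278), Csrp3, a muscle LIM protein of the Z disc, by 0.86 (SE 0.25, adjusted p = 0.0351), and Mb by 0.67 (SE 0.20, adjusted p = 0.0384). Of the 29 members tested, 4 were called lower and 0 higher, against 1.04% of all 12558 genes called lower, and 12 were lower at an unadjusted p under 0.05, against 7.42%. The median log2 change was -0.35 with 28 members below 0, beside a median of 0.00 over all genes. Without KO silica mouse 3, which stands apart, 5 members were called lower over both genotypes and 7 in WT lungs, against 5.17% and 4.16% of all genes called in either direction. Ckm had a median of 14.3 CPM in air (5.74 to 20.8) and 6.78 CPM after silica (3.93 to 9.70) in WT lungs, and a median of 11.3 CPM in air (6.35 to 33.5) and 9.68 CPM after silica (5.41 to 10.5) in KO lungs. Csrp3 had a median of 6.86 CPM in air (5.65 to 11.4) and 3.76 CPM after silica (0.786 to 9.70) in WT lungs, and a median of 8.66 CPM in air (5.40 to 10.4) and 4.36 CPM after silica (1.38 to 9.02) in KO lungs. For both genes the groups overlapped in each genotype.

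In WT lungs at 1 day, 4 of 29 members were called lower and 0 higher, against 0.422% of all genes called lower, and the median log2 change was -0.69, beside 0.00 over all genes. Adssl1 ran from 16.2 to 21.3 CPM in air (median 17.4) and from 9.34 to 14.4 CPM after silica (median 12.2). All 6 silica mice lay below all 6 air mice, a pattern that 0.852% of the genes above 1 CPM showed, and Adssl1 fell by 0.56 (SE 0.14, edgeR adjusted p = 0.022). Hspb7, a small heat shock protein of heart muscle, had a median of 14.8 CPM in air (7.84 to 19.5) and 6.64 CPM after silica (3.49 to 11.0). Its groups overlapped, with 4 of 6 silica mice below all air mice, and it fell by 1.11 (SE 0.24, adjusted p = 0.00515). Cox6a2, the muscle form of cytochrome oxidase subunit 6a, had a median of 7.80 CPM in air (5.74 to 12.1) and 3.46 CPM after silica (1.97 to 8.25). Of 6 silica mice 5 lay below all air mice, and it fell by 1.06 (SE 0.26, adjusted p = 0.0179). Mb had a median of 12.9 CPM in air (3.69 to 18.8) and 6.64 CPM after silica (3.49 to 8.41). Of 6 silica mice 1 lay below all air mice, and it fell by 1.07 (SE 0.27, adjusted p = 0.0202).

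The high-level sarcomere genes did not pass in WT lungs at 1 day. Myh6 had a median of 381 CPM in air (207 to 552) and 238 CPM after silica (149 to 373), a log2 change of -0.71 (SE 0.22, edgeR adjusted p = 0.0822). Ttn, at -0.61 (SE 0.22, adjusted p = 0.168), and Myl7, at -0.62 (SE 0.21, adjusted p = 0.121), had changes of similar size. At an unadjusted p under 0.05, 23 of 29 members were lower, against 6.43% of all genes. Nebl and Des were at 0.12 and -0.25 (adjusted p = 0.468 and 0.317 in edgeR).

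In KO lungs at 1 day, 0 of 29 members were called by edgeR, DESeq2 or voom, against 0.223% of all genes called lower by edgeR. At an unadjusted p under 0.05, 1 was lower, against 4.62% of all genes, and 0 were higher. The median log2 change was -0.09. Myh6 had a median of 333 CPM in air (254 to 455) and 347 CPM after silica (194 to 514), a change of 0.04 (SE 0.22, edgeR adjusted p = 0.974). Adssl1 had a median of 17.3 CPM in air (14.2 to 22.7) and 11.5 CPM after silica (10.5 to 19.2), a change of -0.52 (SE 0.15, adjusted p = 0.0796), and 5 of 6 silica mice lay below all air mice.

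The silica effect of KO minus that of WT at 1 day had a median of 0.55 over the members, with 27 of 29 above 0. No member was called (0 in edgeR, DESeq2 and voom), as was no other gene (0% of 12558 in edgeR). With p not adjusted, 5 members were higher at 0.05, against 2.98% of all genes, and 1 was lower, against 2.72%. Hspb7 differed by 1.65 (SE 0.36, edgeR adjusted p = 0.396) and Cox6a2 by 1.63 (SE 0.39, adjusted p = 0.396). A difference between genotypes was thus not detectable with these mice, although the silica effect of Hspb7 was -1.11 in WT and 0.54 in KO lungs (SE 0.27, adjusted p = 0.459 in KO).

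**Figure D4:**
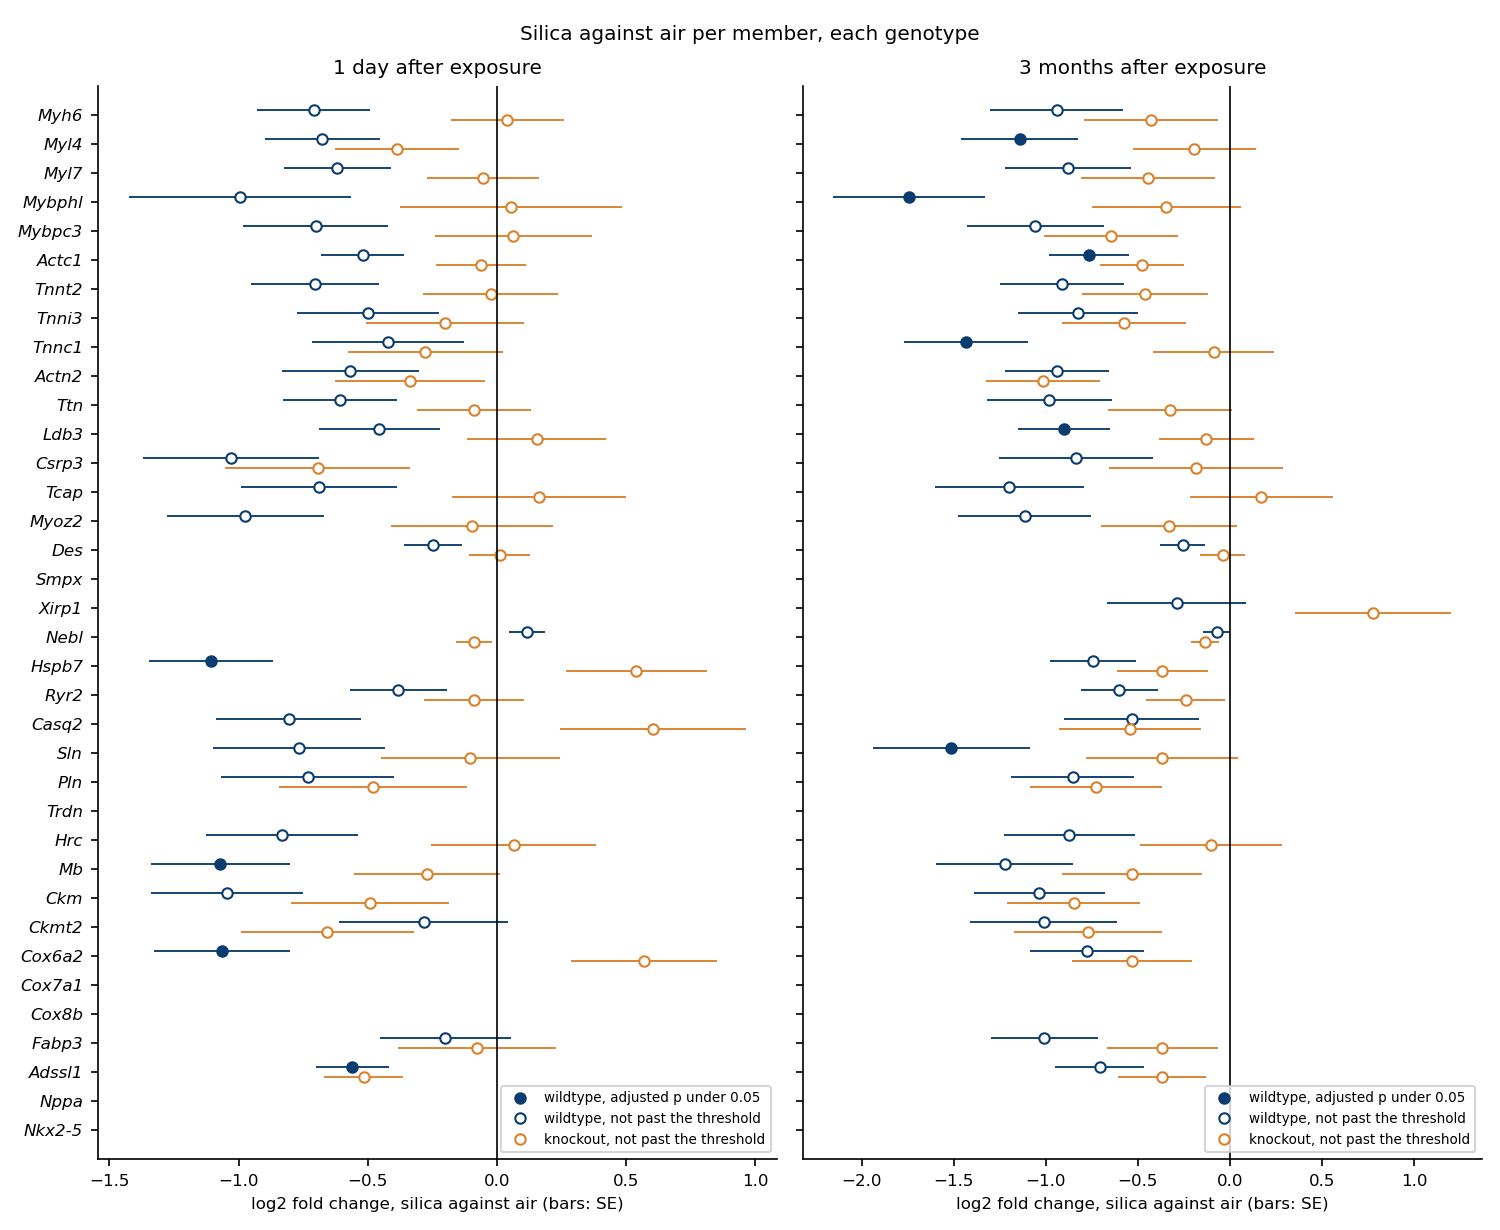
Log2 fold change of silica against air (points, with SE as bars) for each tested member in WT (blue) and KO (orange) lungs at 1 day and at 3 months; filled points passed an adjusted p of 0.05. Of the WT points, 28 of 29 lie below 0 at 1 day and 30 of 30 at 3 months, 4 and 6 are filled, and no KO point is; members with no point were not tested.

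At 3 months after exposure, 13 members were lower after silica over both genotypes, from all parts of the sarcomere and its energy supply. Of 30 members tested, 13 were called lower and 0 higher, against 3.09% of all 12647 genes called lower. The median log2 change was -0.66 with 29 below 0, beside -0.01 over all genes, and 23 were lower at an unadjusted p under 0.05, against 9.98% of all genes. In the thick filament, 2 of 5 passed. Mybphl, a relative of the myosin-binding proteins found in atrial muscle, fell by 1.04 (SE 0.29, edgeR adjusted p = 0.0214) and Mybpc3, the cardiac myosin-binding protein C, by 0.85 (SE 0.26, adjusted p = 0.0385). In the thin filament, 2 of 4 passed: Actc1 fell by 0.62 (SE 0.16, edgeR adjusted p = 0.0105) and Tnnc1, the calcium sensor troponin C, by 0.76 (SE 0.24, adjusted p = 0.0422). Myh6, Myl4, Myl7, Tnnt2 and Tnni3 lay between -0.70 and -0.66 and did not pass, with Myh6 at -0.68 (SE 0.26, adjusted p = 0.103).

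Of the 10 Z disc and scaffold genes tested at 3 months, 2 passed. Actn2, alpha-actinin, which anchors actin at the Z disc, fell by 0.98 (SE 0.21, edgeR adjusted p = 0.00227) and Hspb7 by 0.56 (SE 0.17, adjusted p = 0.0397). Nebl was at -0.10 (SE 0.05, adjusted p = 0.256), Des at -0.15 (SE 0.09, adjusted p = 0.354) and Ttn at -0.65 (SE 0.24, adjusted p = 0.0916). Among 5 calcium genes tested, Sln fell by 0.94 (SE 0.30, edgeR adjusted p = 0.0464) and Pln, which encodes phospholamban, by 0.79 (SE 0.25, adjusted p = 0.0418). The calcium release channel gene Ryr2 was at -0.42 (SE 0.15, adjusted p = 0.0822). In the energy group 5 of 6 passed. Ckm fell by 0.94 (SE 0.25, edgeR adjusted p = 0.016), the mitochondrial creatine kinase Ckmt2 by 0.89 (SE 0.28, adjusted p = 0.0475), Mb by 0.88 (SE 0.27, adjusted p = 0.0369), the fatty acid carrier Fabp3 by 0.69 (SE 0.21, adjusted p = 0.0383) and Adssl1 by 0.54 (SE 0.17, adjusted p = 0.0443). Cox6a2 was at -0.65 (SE 0.23, adjusted p = 0.0711).

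The mice behind these 3 month values spread widely. Actn2 had a median of 15.6 CPM in air (9.05 to 26.2) and 7.42 CPM after silica (5.36 to 10.7) in WT lungs and 14.4 CPM in air (6.70 to 18.4) and 7.56 CPM after silica (0.845 to 9.34) in KO lungs. Of 6 silica mice 5 lay below all air mice in WT and 2 in KO. Ckm had a median of 12.9 CPM in air (5.71 to 20.8) and 6.62 CPM after silica (4.74 to 8.59) in WT lungs and 15.6 CPM in air (2.93 to 18.4) and 8.05 CPM after silica (1.27 to 14.4) in KO lungs, with 2 and 1 of 6 silica mice below all air mice. Mb had a median of 15.9 CPM in air (8.57 to 27.8) and 6.90 CPM after silica (3.55 to 9.19) in WT lungs and 11.6 CPM in air (5.44 to 22.2) and 8.51 CPM after silica (0 to 16.1) in KO lungs, with 4 and 1 of 6 below. Fabp3 had a median of 12.1 CPM in air (7.62 to 16.3) and 4.29 CPM after silica (2.69 to 9.48) in WT lungs and 10.9 CPM in air (5.44 to 11.9) and 7.64 CPM after silica (2.11 to 12.3) in KO lungs, with 5 and 2 of 6 below. All of these groups overlapped.

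Pln, Ckmt2, Mybpc3 and Hspb7 were low genes with overlapping groups in both genotypes. Pln had a median of 10.2 CPM in air (4.29 to 16.0) and 4.56 CPM after silica (2.69 to 8.70) in WT lungs and 8.11 CPM in air (4.60 to 15.1) and 4.99 CPM after silica (1.91 to 11.9) in KO lungs. Ckmt2 had a median of 7.27 CPM in air (3.33 to 14.4) and 3.82 CPM after silica (2.26 to 4.53) in WT lungs and 8.29 CPM in air (2.09 to 15.5) and 4.69 CPM after silica (0.845 to 7.64) in KO lungs. In each of the 4 groups of both genes the highest mouse exceeded the lowest mouse of the opposite exposure. Mybpc3 had a median of 8.56 CPM in air (3.33 to 16.0) and 4.20 CPM after silica (2.88 to 6.27) in WT lungs and 9.33 CPM in air (3.35 to 11.8) and 6.99 CPM after silica (0.845 to 10.6) in KO lungs. Hspb7 had a median of 11.8 CPM in air (7.14 to 18.0) and 7.39 CPM after silica (4.74 to 10.4) in WT lungs and 9.85 CPM in air (6.28 to 14.1) and 6.83 CPM after silica (5.07 to 12.7) in KO lungs.

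The count at 3 months moved with single libraries. Leaving out 1 of the 24 gave between 3 and 21 members, all lower, and 15 of the 24 refits differed from 13 by more than 1.5 times. The count was 3 without KO air mouse 1, 4 without WT air mouse 1 or 4, WT silica mouse 1 or KO silica mouse 5, 5 without WT silica mouse 2 or KO air mouse 4, 6 without WT air mouse 3, WT silica mouse 4 or KO air mouse 3, 7 without WT silica mouse 5, 8 without WT silica mouse 6, KO air mouse 5 or KO silica mouse 1 and 21 without KO silica mouse 6. Actn2, Actc1 and Ckm passed in all 24 refits, whereas Sln was lost in 18, Ckmt2 in 17, Adssl1 in 16, Pln in 16, Tnnc1 in 15, Hspb7 in 14, Fabp3 in 14, Mybpc3 in 12, Mb in 9 and Mybphl in 1. Without KO silica mouse 3, which stands apart and has the lowest summed level, 11 of 30 were called lower, against 7.81% of 12695 genes called in either direction, and the median was -0.55. Des, Ttn and Myh6 then passed, and Hspb7, Sln, Pln, Ckmt2 and Fabp3 no longer did. In that library Mmp12, a macrophage elastase, was at 186 CPM and Chil3, a macrophage chitinase-like protein, at 1409 CPM, and their part in the result was not tested.

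In WT lungs at 3 months, 6 of 30 members were called lower and 0 higher, against 0.72% of all genes called lower, and 30 were below 0 with a median of -0.91, beside -0.01 over all genes. Mybphl ran from 5.71 to 9.61 CPM in air (median 8.54) and from 0.395 to 3.76 CPM after silica (median 2.60). All silica mice lay below all air mice, and it fell by 1.74 (SE 0.41, edgeR adjusted p = 0.0114). Tnnc1 ran from 7.14 to 19.0 CPM in air (median 12.6) and from 2.96 to 5.80 CPM after silica (median 4.71). It too showed no overlap, which held for 0.797% of genes above 1 CPM, and it fell by 1.43 (SE 0.34, adjusted p = 0.0103). Sln had a median of 6.64 CPM in air (2.38 to 13.3) and 1.95 CPM after silica (0.824 to 4.74). Of 6 silica mice 4 lay below all air mice, and it fell by 1.51 (SE 0.42, adjusted p = 0.0444).

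Myl4 had a median of 58.3 CPM in air (29.5 to 92.4) and 29.0 CPM after silica (13.0 to 36.7) in WT lungs at 3 months, and fell by 1.14 (SE 0.32, edgeR adjusted p = 0.043). Ldb3 had a median of 15.6 CPM in air (8.10 to 27.2) and 7.93 CPM after silica (6.02 to 11.0), and fell by 0.90 (SE 0.25, adjusted p = 0.043). Actc1 had a median of 96.8 CPM in air (54.3 to 168) and 60.9 CPM after silica (47.4 to 72.9), and fell by 0.76 (SE 0.22, adjusted p = 0.0481). In all 3 genes the groups overlapped, with 3, 3 and 2 of 6 silica mice below all air mice. Adssl1 showed no overlap either, with 12.9 to 22.6 CPM in air (median 14.9) and 6.78 to 12.5 CPM after silica (median 9.38), but its change of -0.71 (SE 0.24, adjusted p = 0.118) did not pass. Myh6 had a median of 374 CPM in air (219 to 717) and 221 CPM after silica (116 to 272), a change of -0.94 (SE 0.36, adjusted p = 0.193). Ttn had a median of 990 CPM in air (564 to 1888) and 560 CPM after silica (331 to 685), a change of -0.98 (SE 0.34, adjusted p = 0.126). Myl7 had a median of 65.9 CPM in air (35.2 to 111) and 35.1 CPM after silica (19.3 to 59.5), a change of -0.88 (SE 0.34, adjusted p = 0.204). These 3 sarcomere genes of high level thus had lower medians after silica than in air, but their groups overlapped.

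Genes of the scaffold and the calcium release channel were among those not called. Nebl had a median of 191 CPM in air (184 to 208) and 180 CPM after silica (168 to 200) in WT lungs at 3 months, a change of -0.07 (SE 0.07, edgeR adjusted p = 0.762). Des had a median of 105 CPM in air (101 to 126) and 91.8 CPM after silica (77.0 to 106), a change of -0.26 (SE 0.12, adjusted p = 0.354). Ryr2 had a median of 90.1 CPM in air (71.0 to 162) and 65.4 CPM after silica (46.6 to 74.7), a change of -0.60 (SE 0.21, adjusted p = 0.128).

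With p not adjusted, 26 of 30 members were lower at 0.05 in WT lungs at 3 months, against 6.17% of all genes. The fit estimates the spread from all 4 groups of that time, so KO libraries bear on the count of 6. Without KO silica mouse 3 it was 16 of 30, against 4.53% of all genes called in either direction, with a median of -0.89. Myh6, Ttn, Ryr2, Actn2, Ckm, Mb, Fabp3, Tcap, Myoz2 and Adssl1 then passed in addition to the 6. Leaving out single libraries, the count was 1 without WT silica mouse 1, 2 without WT air mouse 1, 3 or 4, WT silica mouse 2, 4, 5 or 6 or KO air mouse 5, 3 without WT air mouse 2, KO air mouse 3 or 4 or KO silica mouse 1, 10 without WT air mouse 6 and 16 without KO silica mouse 3. Tnnc1 passed in all 24 refits, whereas Actc1 was lost in 18, Sln in 16, Myl4 in 12, Ldb3 in 11 and Mybphl in 1.

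In KO lungs at 3 months, 0 of 30 members were called in edgeR, 0 in voom and 1 in DESeq2, against 1.78% of all genes called lower by edgeR. At an unadjusted p under 0.05, 3 were lower, against 8.01% of all genes, and 0 higher. The median log2 change was -0.37, beside 0.00 over all genes. Actn2 was at -1.02 (SE 0.31, edgeR adjusted p = 0.0528). Myh6 had a median of 293 CPM in air (117 to 442) and 227 CPM after silica (12.3 to 417), a change of -0.43 (SE 0.36, adjusted p = 0.601), and Tnnc1 had a median of 9.19 CPM in air (4.60 to 10.8) and 7.69 CPM after silica (1.27 to 14.4), a change of -0.09 (SE 0.33, adjusted p = 0.938). The count was 1 without WT air mouse 4, 5 or 6, KO air mouse 2 or KO silica mouse 1 or 6. Without KO silica mouse 3 the median was -0.17 and 0 members were called lower in edgeR.

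The silica effect of KO minus that of WT at 3 months had a median of 0.44, and 27 of 30 members were above 0. No member and no other gene was called (0% of 12647 genes in edgeR, 0 members in edgeR, DESeq2 and voom). With p not adjusted, 5 members were higher at 0.05, against 3.93% of all genes, and 0 lower, against 3.74%. They were Tnnc1 (1.35, SE 0.47, edgeR adjusted p = 0.515), Mybphl (1.40, SE 0.59, adjusted p = 0.591), Tcap (1.37, SE 0.57, adjusted p = 0.584), Ldb3 (0.77, SE 0.36, adjusted p = 0.638) and Myl4 (0.95, SE 0.46, adjusted p = 0.65). The calls in WT lungs and their absence in KO lungs therefore do not show that the genotypes differ. Without KO silica mouse 3 the median was 0.69, with 0 members called.

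**Figure D5:**
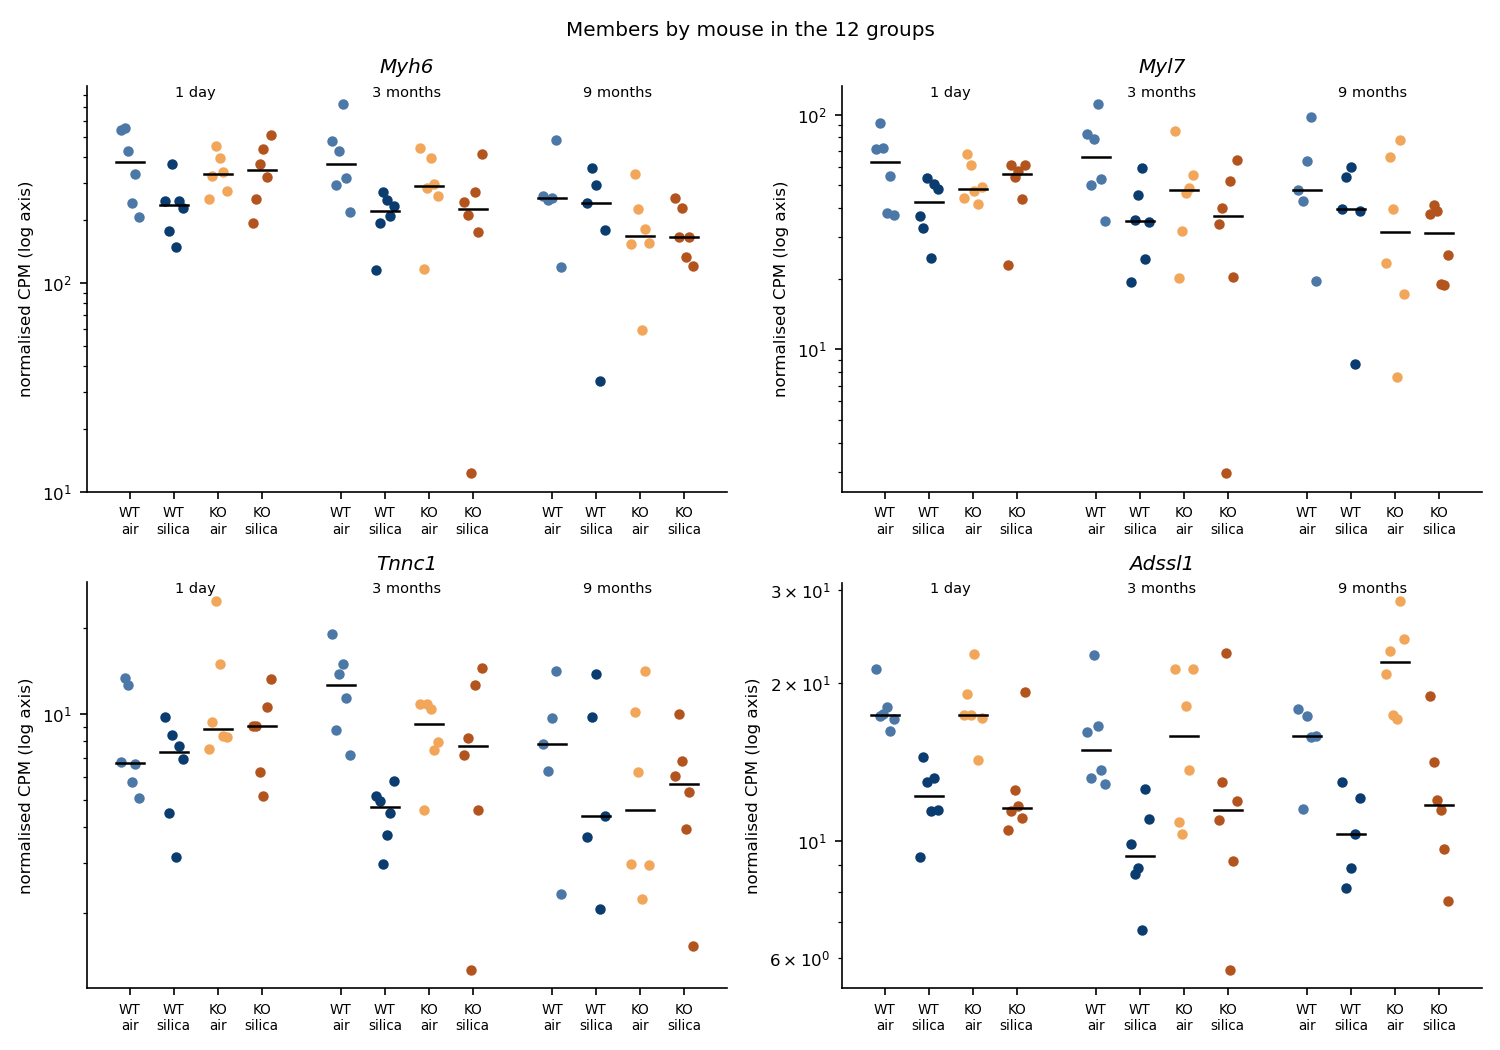
Normalised CPM (log axis) of Myh6, Myl7, Tnnc1 and Adssl1 in each mouse of the 12 groups; each point is 1 mouse and black bars are group medians. At 3 months the WT silica mice lie below all WT air mice in Tnnc1 and Adssl1, KO silica 3 months mouse 3 is the lowest point of Myh6 and Myl7, and Adssl1 has a lower median after silica in both genotypes at all 3 times.

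At 9 months after exposure only Adssl1 passed. It fell by 0.70 (SE 0.14, edgeR adjusted p = 0.0143) over both genotypes, 1 of 28 members tested, against 0.0546% of all 12826 genes called lower. With p not adjusted, 1 member was lower at 0.05, against 5.03%, and the members' median was -0.24, beside 0.00 over all genes. In KO lungs Adssl1 fell by 0.83 (SE 0.18, edgeR adjusted p = 0.0427), again 1 of 28 against 0.0546%, with a median of 21.9 CPM in air (17.1 to 28.6) and 11.7 CPM after silica (7.69 to 18.9). Of 6 KO silica mice 5 lay below all KO air mice. At an unadjusted p under 0.05, 2 members were lower in KO lungs, against 5.29% of all genes, and the median was -0.09.

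In WT lungs at 9 months, Adssl1 was at 17.8, 11.5, 17.3, 15.8 and 15.9 CPM in the 5 air mice and at 12.9, 8.13, 8.90, 10.3 and 12.1 CPM in the 5 silica mice. Of the silica mice 3 lay below all air mice, and the change was -0.57 (SE 0.21, edgeR adjusted p = 0.572). Myh6 was at 261, 250, 255, 486 and 119 CPM in air and at 241, 358, 294, 33.8 and 179 CPM after silica, a change of -0.32 (SE 0.41, adjusted p = 0.925). Its groups overlapped almost wholly. In edgeR, DESeq2 and voom, 0 of 28 members were called, against 0% of all genes called lower by edgeR, and at an unadjusted p under 0.05 1 was lower, against 3.49%. The median was -0.39.

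The KO call of Adssl1 at 9 months was lost in 15 of 22 refits that left out 1 library. The count was 0 without WT air mouse 1, 3 or 4, WT silica mouse 1, 3, 4 or 5, KO air mouse 1, 2, 5 or 6 or KO silica mouse 3, 4, 5 or 6. The call over both genotypes was lost in 0. Without the 3 air libraries that stand apart at 9 months, Adssl1 was again the only member called over both genotypes and in KO lungs, 1 of 29 members each. Of all 12839 genes, 3.87% and 1.7% were then called in either direction, so the members' share was near that of all genes over both genotypes. The members' median was then -0.36 over both genotypes, -0.59 in WT and -0.15 in KO lungs. Chil3 was at 8011, 6583 and 2997 CPM in those 3 libraries, and Myh6 at 119, 59.3 and 182 CPM. The silica effect of KO minus that of WT at 9 months had no member called (0 in edgeR, DESeq2 and voom, 0% of all genes in edgeR). At an unadjusted p under 0.05 there were 0 lower and 0 higher, against 3.13% and 3.89% of all genes.

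Adssl1 thus had a lower median after silica in both genotypes at every time and passed over both genotypes at each of them. Between mice of a group it followed the other members weakly at most (r = 0.04, rho = 0.26). Ckm and Mb, neighbours in the energy group, were not called at 9 months, at -0.47 (SE 0.41, edgeR adjusted p = 0.772) and -0.33 (SE 0.41, adjusted p = 0.856). Across times, the silica effect at 3 months minus that at 1 day had a median of -0.32 over the members and none called (0 in edgeR, DESeq2 and voom, 0.0755% of all genes in edgeR, 0 members at an unadjusted p under 0.05 against 6.5%). The effect at 9 months minus that at 3 months had a median of 0.42 and none called either (0 in edgeR, DESeq2 and voom, 0.732% of all genes in edgeR). Here 4 members were higher and 0 lower at an unadjusted p under 0.05, against 5.95% and 7.65% of all genes. Without the libraries that stand apart these medians were -0.17 and 0.15, with 0 members called by edgeR in each.

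Genotype over both exposures called no member (0 in edgeR, DESeq2 and voom at 1 day, at 3 and at 9 months). In edgeR 0.486%, 0.261% and 0% of all genes were called. With p not adjusted there were 1, 0 and 2 members at 0.05, against 11.3%, 13.2% and 6.38% of all genes. Between air lungs of 3 months and 1 day no member was called (0 in edgeR, DESeq2 and voom, 0.113% of all genes in edgeR, 0 members at an unadjusted p under 0.05 against 8.05%), and the median log2 change was 0.09.

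Between air lungs of 9 and 3 months, 5 of 30 members were called lower and 0 higher, but 13.5% of all 13252 genes were called lower too. At an unadjusted p under 0.05, 8 members were lower, against 18.1% of all genes. Those called were Hrc, a calcium-binding protein of the sarcoplasmic reticulum (-0.87, SE 0.30, edgeR adjusted p = 0.02), Tcap, which caps titin (-0.86, SE 0.30, adjusted p = 0.0214), Hspb7 (-0.54, SE 0.21, adjusted p = 0.0446), Actc1 (-0.52, SE 0.17, adjusted p = 0.0133) and Des (-0.27, SE 0.10, adjusted p = 0.0278). Actc1 had means of 89.1 CPM at 3 months and 61.1 CPM at 9 months, and Des of 108 and 89.2 CPM. Without the libraries that stand apart, 0 of 30 members were called by edgeR while 18.6% of all genes were. The count was 2 without WT air 3 months mouse 4 or WT air 9 months mouse 5, 8 without WT air 3 months mouse 6, 9 without KO air 9 months mouse 2 and 11 without WT air 9 months mouse 4. Age and any collection batch go with time and cannot be told apart.

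Other gene lists show what moved beside the members. Of 49 further heart muscle genes, 28 were tested at 1 day and 28 at 3 months. Of all genes, 1.04% at 1 day and 3.09% at 3 months were called lower over both genotypes. Over both genotypes, 2 were called lower and 0 higher at 1 day, namely Jph2, which joins membranes at the calcium release site (-0.39, SE 0.10, edgeR adjusted p = 0.0178), and Unc45b, a myosin chaperone (-0.42, SE 0.12, adjusted p = 0.0359). At 3 months 2 were called lower and 0 higher, among them Unc45b (-0.41, SE 0.13, edgeR adjusted p = 0.0497), and 28 were below 0 with a median of -0.24. In WT lungs Myom1 was called lower at 1 day (-0.55, SE 0.14, edgeR adjusted p = 0.027) and 0 genes at 3 months. In KO lungs Myh7 was called lower at 3 months (-0.57, SE 0.15, edgeR adjusted p = 0.028). How its reads were divided from those of Myh6 was not tested. At 9 months 0 of 27 were called in edgeR. Of the 6 ventricular markers, 3 had a mean under 1 CPM, their summed level ran from 37.2 to 191 CPM, and after silica only Myh7 was called.

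The energy genes of the members were set beside respiratory chain genes that all cells use. Of 14, 0 were called after silica at any time in edgeR, and the median log2 change over both genotypes was 0.00 at 1 day, 0.02 at 3 months and -0.12 at 9 months. At 3 months Cox6a1 and Cox8a, the body forms of Cox6a2 and Cox8b, were at -0.07 (SE 0.06, edgeR adjusted p = 0.587) and -0.02 (SE 0.07, adjusted p = 0.903). Per lung the 14 genes summed to 1186 to 1935 CPM.

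Among smooth muscle markers, Myh11, the smooth muscle myosin heavy chain, was called lower at 1 day over both genotypes (-0.17, SE 0.04, edgeR adjusted p = 0.0195) and in WT lungs (-0.31, SE 0.06, adjusted p = 0.00162), 1 of 11 tested each time, and 0 were called at 3 months. In WT lungs at 1 day all 11 were below 0 (median -0.19). At an unadjusted edgeR p under 0.05, 6 were lower, against 6.43% of all genes. At 3 months 10 were below 0 and 1 was lower, against 6.17%. In the silica effect of KO minus that of WT, 0 of 11 were below 0 at either time (medians 0.30 and 0.33). None was called, and 4 were higher at an unadjusted p under 0.05 each time, against 2.98% and 3.93%. The 12 markers summed to 886 to 2062 CPM per lung. Of the 5 fat markers tested, Cidec, a lipid droplet protein, was lower over both genotypes at 1 day (-0.78, SE 0.16, edgeR adjusted p = 0.00101) and at 3 months (-1.001, SE 0.23, adjusted p = 0.00506), and in WT lungs at 1 day (-1.14, SE 0.22, adjusted p = 0.00166) and at 3 months (-1.79, SE 0.33, adjusted p = 0.000797). Plin4, another lipid droplet protein, was lower in WT lungs at 3 months (-1.16, SE 0.29, edgeR adjusted p = 0.0203). The 12 fat markers summed to 34.0 to 212 CPM per lung, 4 had a mean under 1 CPM, and Ucp1 was at 0 in 53 of 70 libraries. In WT lungs at 3 months the summed fat markers ran from 54.2 to 212 CPM in air and from 34.0 to 55.1 CPM after silica, and their part in the members' result was not tested.

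Of the other lists few genes moved with silica. No mesothelium marker was called (0 of 6 in edgeR at each time), with Msln at 0.01 (SE 0.12, edgeR adjusted p = 0.993) and Upk3b at -0.32 (SE 0.11, adjusted p = 0.0822) over both genotypes at 3 months, and summed levels were 201 to 532 CPM. No thymus marker was called (0 of 3 tested in edgeR), the summed level was 10.7 to 42.2 CPM, and Rag1 was at 0 in 48 of 70 libraries. Among nerve markers, the adhesion protein gene Cadm2 was lower over both genotypes at 1 day (-0.93, SE 0.22, edgeR adjusted p = 0.00651) and at 3 months (-0.70, SE 0.21, adjusted p = 0.0315), and in KO lungs at 3 months (-1.47, SE 0.31, adjusted p = 0.00341). Their summed level ran from 58.3 to 97.8 CPM. The only skeletal muscle marker tested, Neb, which encodes nebulin, was higher over both genotypes at 3 months (0.54, SE 0.17, edgeR adjusted p = 0.0435), opposite in sign to the members, and the 15 markers summed to 8.28 to 45.0 CPM.

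Among 10 lung epithelium markers over both genotypes, 2 were called lower and 2 higher at 1 day, and 4 lower and 2 higher at 3 months. At 3 months the surfactant protein gene Sftpa1 (0.33, SE 0.06, edgeR adjusted p = 0.000234) and the lamellar body gene Lamp3 (0.31, SE 0.05, adjusted p = 9.87e-05) were higher, and Sftpb (-0.27, SE 0.05, adjusted p = 0.000215) and the club cell gene Cyp2f2 (-0.29, SE 0.08, adjusted p = 0.0161) lower. Between air lungs of 9 and 3 months, 13.5% of all genes were called lower. Of 12 smooth muscle markers 5 were lower, among them Myh11 (-0.43, SE 0.08, edgeR adjusted p = 3.01e-05). Of the further heart muscle genes 8 of 32 were lower, among them Tbx5 (-0.67, SE 0.07, edgeR adjusted p = 2.21e-10). Of the mesothelium markers 5 of 6 were higher, among them Msln (0.60, SE 0.13, edgeR adjusted p = 0.000313), as were 5 of 14 respiratory chain genes. The share of all genes called higher is not given here, so the counts of higher genes are a description. The part of these lists in the members' result was not tested.

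The filter on low counts left 6 members out of the silica tests at every time. Smpx, a small muscle protein, Trdn, which encodes triadin of the calcium release site, Cox7a1 and Cox8b, muscle forms of cytochrome oxidase subunits, Nppa and Nkx2-5 had no count in 12, 2, 4, 3, 58 and 40 of 70 libraries. Xirp1, an actin-binding protein of the intercalated disc, was tested at 3 months alone, where it was at 0.24 (SE 0.29, edgeR adjusted p = 0.714) over both genotypes. The calcium store protein gene Casq2 was tested at 1 day and 3 months, where it was at -0.10 (SE 0.24, edgeR adjusted p = 0.88) and -0.54 (SE 0.27, adjusted p = 0.25). Fitted without the filter, the first 6 had 0 calls in edgeR over 54 silica results (lowest adjusted p = 0.101, 5 at an unadjusted p under 0.05).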

How the data were processed

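Lung RNA of 70 mice was sequenced from stranded libraries depleted of ribosomal RNA, per the labels' protocols. The submitters' processing notes name HTSeq 0.11.2, HISAT2 2.1.0, Trimmomatic 0.35, Cufflinks, SAMtools 1.8 and bcl2fastq 2.19 in no stated order, and build mm10. The deposited values are whole-number read counts per gene, and their totals differ between libraries. Of 24439 rows, 19 that repeated a symbol with the same counts were dropped. The tRNA synthetase gene Lars2 held 8.33% of all counts. Totals of 802478 to 5596316 counts per library set the precision of low genes.

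Groups came from the labels. Counts were tested with edgeR 4.0.16 (glmQLFit and glmQLFTest, filterByExpr, TMM) in R 4.3.3, in 1 fit of 4 groups per time and 1 fit of 12 groups to compare times. P-values were adjusted by Benjamini-Hochberg over all genes tested, with a threshold of 0.05, and SE is the log2 change divided by the root of F. Exon lengths are from GENCODE vM21. Alternatives were DESeq2 1.42.0, voom with sample weights in limma 3.58.1, DESeq2 size factors, other filters, 1 model of all libraries, and libraries left out. The code was tested on simulated counts given the same spread in every gene, a setting that differs from the wide spread of many members.

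The members and lists were chosen with earlier results of these data known. The rule was to give mouse values for members called after silica and for the 8 of highest level, to name at most 4 called genes of any other list, and to name the 12 genes nearest the members' pattern; 1 gene under this rule is not reported here. Litters and cages are not in the labels, so p-values measure the spread between these mice.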

Additional observations from a re-analysis of the deposited data

Results flagged for a closer look

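Of 276 sets of a member and a group, 13 held a mouse whose gap to its nearest neighbour was large for the group's range (Dixon's test at 95%, which picks about 1 in 20 groups by chance). Of these values 11 were high and 2 were low. The low ones were Nebl at 160 CPM in WT air 9 months mouse 5 (the others 195 to 199) and Ckm at 2.93 CPM in KO air 3 months mouse 2 (the others 12.8 to 18.4). Ckm was high at 33.5 CPM in KO air 1 day mouse 3 (the others 6.35 to 15.8), the shallowest library, and at 32.7 CPM in KO air 9 months mouse 5 (the others 3.60 to 12.4).

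Ttn was high at 1569 CPM in WT air 9 months mouse 4 (the others 380 to 710) and Ryr2 at 162 CPM in WT air 3 months mouse 4 (the others 71.0 to 101). KO air 1 day mouse 4 was high in Mybpc3, at 13.6 CPM (the others 4.63 to 7.43), and in Ldb3, at 16.8 CPM (the others 6.20 to 10.0). KO silica 3 months mouse 6 was high in Hspb7, at 12.7 CPM (the others 5.07 to 7.26), and in Pln, at 11.9 CPM (the others 1.91 to 5.35). Csrp3 was high at 9.70 CPM in WT silica 1 day mouse 3 (the others 0.786 to 3.98). Adssl1 was high at 21.3 CPM in WT air 1 day mouse 1 (the others 16.2 to 17.9) and at 19.2 CPM in KO silica 1 day mouse 6 (the others 10.5 to 12.5).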

How the results depend on the processing

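None of the alternatives run reversed the sign of a called member, and none of the refits that left out 1 library called a member higher. Counts of members called that moved by more than 1.5 times are given here beside the reported count. A single model of all 70 libraries gave 1 in place of 4 (both genotypes, 1 day), 2 in place of 4 (WT, 1 day), 3 in place of 13 (both genotypes, 3 months) and 1 in place of 6 (WT, 3 months). Voom with sample weights gave 2 (both genotypes, 1 day), 8 (WT, 1 day), 7 (both genotypes, 3 months) and 1 in place of 5 (air lungs, 9 against 3 months). No filter on low counts gave 7 (WT, 1 day) and 1 in place of 0 (KO, 3 months), and the DESeq2 test gave 1 for KO at 3 months. A mean of at least 1 CPM as the filter gave 0 in place of 1 (KO, 9 months). Leaving out the libraries that stand apart, an alternative chosen after seeing the data, gave 7 (WT, 1 day), 16 (WT, 3 months) and 0 (air lungs, 9 against 3 months).

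Leaving out 1 library gave 1 to 6 (both genotypes, 1 day), 1 to 9 (WT, 1 day), 0 to 1 (KO, 1 day), 3 to 21 (both genotypes, 3 months), 1 to 16 (WT, 3 months), 0 to 1 (KO, 3 months), 0 to 1 (KO, 9 months) and 2 to 11 (air lungs, 9 against 3 months). Over both genotypes at 1 day the count was 1 without WT air mouse 2, WT silica mouse 4 or KO air mouse 2 and 2 without WT air mouse 1 or 3, WT silica mouse 6 or KO silica mouse 1 or 5. In WT lungs at 1 day it was 1 without WT silica mouse 4, 2 without WT air mouse 1 or 3 or WT silica mouse 6, 7 without WT air mouse 4 or KO silica mouse 3 and 9 without WT air mouse 6. In KO lungs at 1 day it was 1 without KO silica mouse 6. The cause of these moves was not tested. Depth limits members with few counts per library. No paired analysis was possible because the labels give the mice no shared replicate numbers.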
